A study of Homo sapiens with 10 samples.

Results

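YAP1, WWTR1, TEAD1, LATS2, AMOTL2, CCN1, CCN2, ANKRD1, THBS1 and TNC form a chain from the transcriptional coactivators of the Hippo pathway, through their DNA-binding partner and their inhibitors, to genes they are known to switch on and to secreted proteins of the matrix around the cell. The 10 genes were chosen by name, as the rows of a count table whose identifiers match these symbols, out of 61587 rows, and all 10 passed the filter on low counts. RPTEC/TERT1 cells are a line of human proximal tubular epithelial cells made immortal by telomerase that the study irradiated in order to examine gene expression linked to senescence. Bulk RNA-seq of polyadenylated RNA compared 5 irradiated samples of this line, which had received a 10 Gy gamma dose, with 5 mock-irradiated controls, all collected on day 7, and both groups carry the replicate numbers 1 to 5. All samples therefore share the telomerase transgene and come from a single line, and nothing in the labels says that replicates were separate cultures, so p-values measure only the spread between these samples. In bulk RNA, fewer cells expressing a gene and less of its RNA per cell cannot be told apart.

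The Hippo pathway restrains growth: the kinases STK3 and STK4 activate LATS1 and LATS2, which phosphorylate YAP (encoded by YAP1) and TAZ (encoded by WWTR1) and hold them in the cytoplasm. When cells are stretched, spread out or injured, YAP and TAZ enter the nucleus and bind TEAD transcription factors at their target genes, among them CCN1, CCN2 and ANKRD1, and also AMOTL2 and LATS2, which then restrain the coactivators in turn. CCN1, CCN2, THBS1 and TNC are matricellular proteins, secreted into the matrix to change how cells attach and signal, and in the kidney tubule CCN2 is known as a pro-fibrotic factor released after injury. The coactivators are controlled mainly by phosphorylation and location, which RNA counts do not measure.

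Depth ran from 78081911 to 131555873 gene counts per control sample and from 66269311 to 101594948 per irradiated sample. Expression is given as CPM, a gene's counts relative to the TMM-scaled total of the library, and changes as log2 fold changes of irradiated against control samples from edgeR's quasi-likelihood test with replicate number as a block and Benjamini-Hochberg adjustment. A gene is called higher or lower where its adjusted p-value is under 0.05. Epithelial markers were expressed in every sample (summed level 2077 to 2477 CPM in control and 2110 to 2757 CPM in irradiated samples). The proximal tubule markers HNF4A, with 12 counts over the 10 samples, SLC34A1 with 86 and LRP2 with 17 were nearly absent in both groups. Other proximal tubule markers were detected, with ANPEP at a mean of 248 CPM in control and 296 CPM in irradiated samples. GGT1 was at 10.0 and 12.5 CPM and CUBN at 4.37 and 4.76 CPM. Control replicates 1 and 3 stood apart from the other controls. Their mean log2 CPM over 10 cell cycle genes was 4.34 and 4.33, against 5.61 to 5.72 in controls 2, 4 and 5 and 3.11 to 3.77 in irradiated samples, and results below are given without these replicates where that matters. Reads that fall where exons of opposite strands overlap are missing from these counts, which concerns 11.9% of the exon bases of CCN2, 10.1% of YAP1, 9.05% of WWTR1, 7.58% of THBS1 and 1.35% of TNC.

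Of the 10 genes, 3 were higher in irradiated cells (ANKRD1, CCN2 and WWTR1), 1 was lower (AMOTL2), and 6 were not called. Over all 19006 genes tested, 23.9% were called higher and 22.7% lower, and the median log2 fold change was -0.01, so 3 and 1 of 10 are shares like those of genes at large. Control and irradiated samples did not overlap for 2 of the 10 genes (CCN2 and AMOTL2), against 26.7% of all genes tested. The irradiated sample was above the control sample of the same number in all 5 pairs for 6 of the 10 genes and below it in all 5 for 1. The share of all genes that did so was not counted, so these numbers do not set the 10 genes apart. When libraries were scaled by their size alone, 38.0% of called genes in the whole table were higher, against 51.4% here, and the genes called among the 10 were then ANKRD1 and CCN2 (higher) and AMOTL2 (lower).

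**Figure D1:**
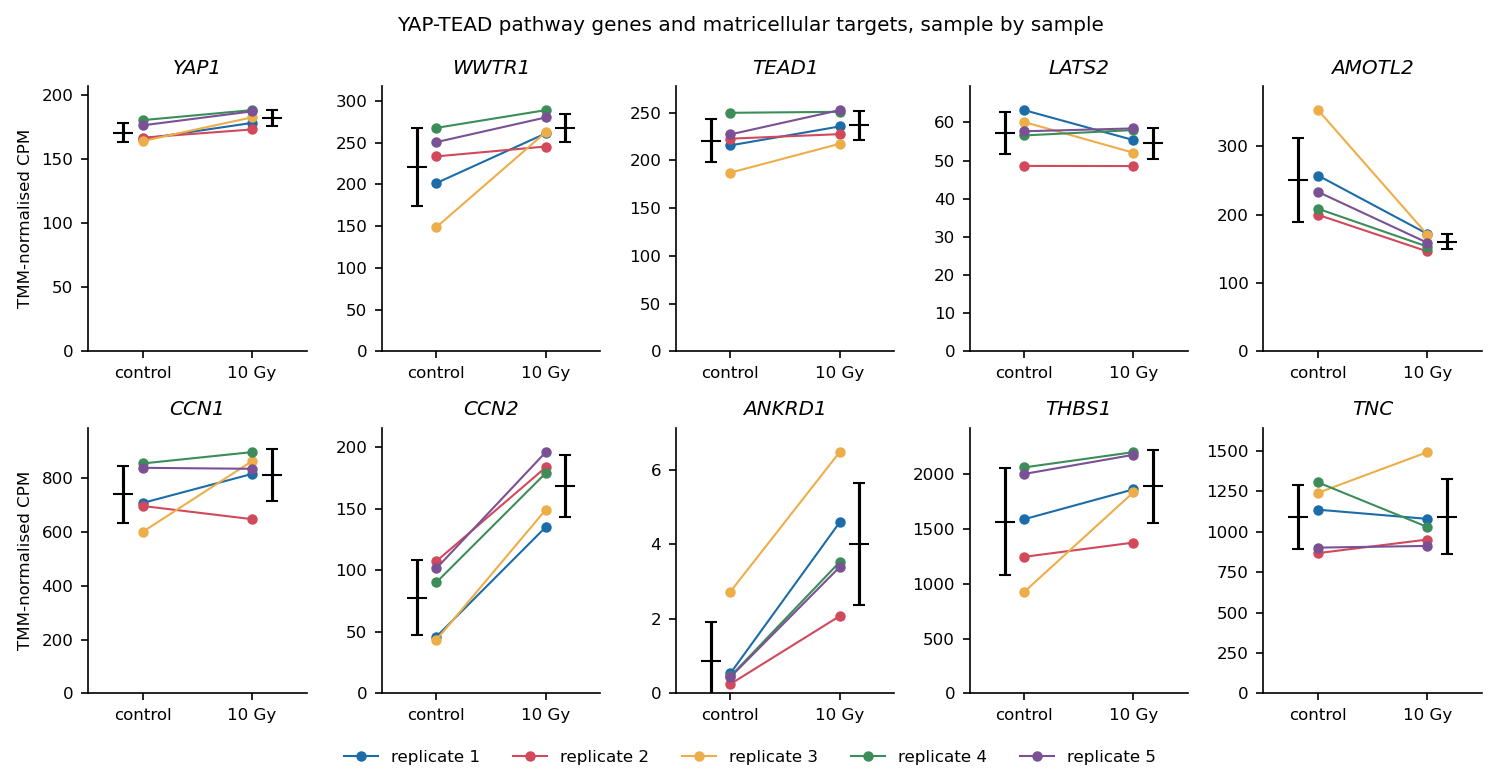
Expression of the 10 genes in each of the 5 control and 5 irradiated (10 Gy) samples, in TMM-normalised CPM on axes that start at 0, with a line joining the samples of each replicate number and black bars for the group mean ± SD (the lower end of the ANKRD1 control bar lies below 0 and is not drawn). All lines rise for CCN2 and ANKRD1 and all fall for AMOTL2, replicate 3 (orange) has the steepest line for WWTR1, THBS1 and AMOTL2, and the lines for LATS2, CCN1 and TNC run both ways.

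Genes were also set side by side per length, as CPM per kb of exon. In control samples CCN1 stood highest at 200.2 ± 28.8 (SD, n = 5), followed by THBS1 at 171.0 ± 53.2 and TNC at 113.8 ± 20.6 CPM per kb. The inhibitor AMOTL2 (38.6 ± 9.49), CCN2 (33.3 ± 13.1), YAP1 (27.0 ± 1.15), WWTR1 (26.4 ± 5.61) and TEAD1 (20.6 ± 2.11 CPM per kb) formed a middle group in which the SDs of AMOTL2 and CCN2, of CCN2 and YAP1, of YAP1 and WWTR1, and of WWTR1 and TEAD1 overlapped. LATS2 was at 10.2 ± 0.972 and ANKRD1 at 0.493 ± 0.580 CPM per kb. The secreted genes thus ranked above the pathway genes, with CCN2 the exception. In irradiated samples the order at the top was CCN1 (219.7 ± 26.1), THBS1 (206.6 ± 36.5), TNC (114.1 ± 24.3) and then CCN2, which at 72.2 ± 10.9 CPM per kb had moved above AMOTL2. It was followed by WWTR1 (32.1 ± 2.05), YAP1 (28.8 ± 0.9995), AMOTL2 (24.7 ± 1.71) and TEAD1 (22.1 ± 1.41), then by LATS2 (9.71 ± 0.743) and ANKRD1 (2.24 ± 0.918 CPM per kb). CCN1 and THBS1 did not differ beyond their spread in either group.

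The coactivators differed little between groups. YAP1 (chromosome 11 of GRCh38, 102110447 to 102233424, plus strand) stood at 165.6, 166.7, 164.0, 180.3 and 176.3 CPM in control replicates 1 to 5 and at 178.2, 173.1, 182.5, 188.2 and 187.2 CPM in irradiated replicates 1 to 5. The irradiated sample was the higher in every pair, by between 1.04- and 1.11-fold, but the groups overlapped. The log2 fold change was 0.09 (SE 0.04, edgeR adjusted p = 0.086), and the change was not called.

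WWTR1 (chromosome 3, 149517235 to 149736714, minus strand), which encodes TAZ, was at 201.7, 233.7, 149.0, 267.8 and 250.8 CPM in controls 1 to 5. In irradiated samples it was at 261.2, 245.5, 262.6, 289.1 and 280.3 CPM. Control 3 was the lowest of all 10 samples and control 1 the next, and the irradiated samples of the other 3 pairs were only 1.05- to 1.12-fold above their controls, against 1.29- and 1.76-fold in pairs 1 and 3. WWTR1 was called higher by a narrow margin, with a log2 fold change of 0.31 (SE 0.11, edgeR adjusted p = 0.0481). Without replicates 1 and 3 the log2 fold change was 0.10 (edgeR adjusted p = 0.112), and the call was also lost without the replicate block (edgeR adjusted p = 0.122). It was lost, too, without replicate 1 (log2 fold change 0.29), replicate 4 (0.36) or replicate 5 (0.35), with edgeR adjusted p-values between 0.0633 and 0.129. The part of the cell cycle state of these controls in this result was not tested. The log2 ratio of WWTR1 to YAP1 was higher by 0.21 in irradiated samples, in 5 of 5 pairs (two-sided exact permutation test, p = 0.0794, adjusted p = 0.119 over the 6 ratios compared).

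TEAD1 (chromosome 11, 12674421 to 12944737, plus strand) binds DNA and carries YAP or TAZ to its targets. Its expression was 215.8, 222.9, 187.3, 249.9 and 227.3 CPM in controls and 235.6, 227.6, 217.5, 251.0 and 252.8 CPM in irradiated samples. In each of the 5 pairs the irradiated sample was the higher, by at most 1.16-fold, and was not called (log2 fold change 0.11, SE 0.05, edgeR adjusted p = 0.0988). YAP1 and TEAD1 had the most similar profiles of any pair among the 10 genes, with a root mean square distance of 0.081 between their mean-centred log2 CPM over the 10 samples. This distance is small for any genes that vary little, as both of these did.

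The other TEAD genes did not stay level. TEAD4 fell from 33.6 ± 2.71 to 20.7 ± 2.18 CPM (SD, n = 5 each), with a log2 fold change of -0.70 (SE 0.05, edgeR adjusted p = 4.9e-05). TEAD3 fell by 0.38 on the log2 scale (edgeR adjusted p = 0.0151) and TEAD2 by 0.23 (edgeR adjusted p = 0.0254). All 3 were lower in the irradiated sample of every pair, but in pair 2 the control and irradiated samples were nearly equal for TEAD3 (25.38 and 25.37 CPM). For TEAD2 they were at 41.6 and 41.2 CPM in that pair. TEAD3 was not called without replicate 1 (-0.33) or replicate 5 (-0.37), nor TEAD2 without replicate 1, 3 or 5 (-0.21 to -0.18) or without replicates 1 and 3 together (-0.14). The log2 ratio of TEAD4 to TEAD1 within a sample went from -2.71 ± 0.09 in controls to -3.52 ± 0.16 in irradiated samples, a difference of -0.81 with no overlap (two-sided exact permutation test, p = 0.00794, adjusted p = 0.0159 over 6 ratios). The smallest p that assignments of 5 and 5 samples allow is 0.00794. Exact sign flips within the 5 replicate pairs cannot pass the threshold, and gave their smallest value (adjusted p = 0.075) for 5 of the 6 ratios, all but LATS2 to LATS1. VGLL4, a cofactor that competes with YAP for TEAD, rose from 54.8 ± 4.96 to 73.6 ± 6.96 CPM (log2 fold change 0.43, edgeR adjusted p = 0.000248). VGLL1, VGLL2 and VGLL3 stayed under the count limit.

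The inhibitors of YAP and TAZ went separate ways. LATS2 (chromosome 13, 20973036 to 21061586, minus strand), the kinase that phosphorylates YAP and TAZ, was at 63.2, 48.6, 60.1, 56.6 and 57.7 CPM in controls and at 55.4, 48.6, 52.0, 58.0 and 58.4 CPM in irradiated samples. The groups lay on top of each other, with the irradiated sample higher in 2 pairs and lower in 3 (log2 fold change -0.07, SE 0.05, edgeR adjusted p = 0.314). The log2 ratio of LATS2 to its sister kinase LATS1 differed by -0.12 between groups (two-sided exact permutation test, p = 0.27, adjusted p = 0.324).

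AMOTL2 (chromosome 3, 134355347 to 134375479, minus strand) encodes an angiomotin family protein that binds YAP at cell junctions and is itself a known YAP target. It was at 257.0, 199.6, 352.6, 208.4 and 233.1 CPM in controls, and at 171.8, 146.1, 170.7, 153.2 and 158.8 CPM in irradiated samples. Every irradiated sample lay below every control, and control 3 was the highest. AMOTL2 fell 1.53-fold, from 250.1 ± 61.5 to 160.1 ± 11.1 CPM (log2 fold change -0.61, SE 0.09, edgeR adjusted p = 0.00111). Without replicates 1 and 3, which include the control with the highest level, it fell by 0.50 on the log2 scale (edgeR adjusted p = 0.000226).

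The angiomotin relatives moved in the opposite direction to AMOTL2. AMOTL1 rose from 117.5 ± 10.2 to 194.2 ± 17.8 CPM (log2 fold change 0.72, edgeR adjusted p = 0.000197) and AMOT from 37.5 ± 3.06 to 55.5 ± 5.12 CPM (log2 fold change 0.56, edgeR adjusted p = 0.000151), both in all 5 pairs. The log2 ratio of AMOTL2 to AMOTL1 fell from 1.06 ± 0.44 to -0.28 ± 0.12, a difference of -1.34 (two-sided exact permutation test, p = 0.00794, adjusted p = 0.0159). All 5 pairs showed this direction. Each gene alone already separated the groups, in opposite directions, so this p and the direction of the pairs were fixed and add nothing to those results.

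The rest of the pathway changed in both directions. Among 17 Hippo kinases and scaffolds, 5 were higher and 4 lower, with a median log2 fold change of 0.06, and 8 were not called. The scaffold FRMD6 rose 1.37 on the log2 scale, from 49.7 ± 7.07 to 129.2 ± 24.2 CPM, and the kinase MAP4K4 rose by 0.76, both apart from controls in every sample. TAOK2 (0.27) and MOB1B (0.18) were also higher, MOB1B no longer so when libraries were scaled by size alone. The lower genes were WWC2 (-0.75), which codes for a KIBRA family scaffold, the kinase STK3 (-0.45), its partner SAV1 (-0.35) and WWC1 (-0.16). MOB1B (0.15 to 0.18) and WWC1 (-0.16 to -0.15) were not called without replicate 1, 4 or 5. For these 8 genes the edgeR adjusted p-values lay between 6.41e-05 (WWC2) and 0.0257 (MOB1B).

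Of 10 junction and cytoskeletal regulators of YAP, 9 were tested (DCHS1 was under the limit), 3 were higher and 2 lower, and the median log2 fold change was 0.15. Beside the angiomotins, the giant cadherin FAT1 was higher (0.37) and the LIM protein WTIP lower (-0.26). FAT1 was not called without replicate 1 (0.33) or replicate 5 (0.38), and was at 0.19 without replicates 1 and 3 (edgeR adjusted p = 0.0916). Of 10 YAP, TAZ, TEAD and VGLL genes, 7 were tested, 2 were higher and 3 lower, with a median of 0.09. Over the 3 lists together, 10 of 33 tested genes were higher and 9 lower, with 14 genes not called and a median log2 fold change of 0.07. These shares lie near those of the whole table, and without replicate 5 the number of higher genes was 6.

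**Figure D2:**
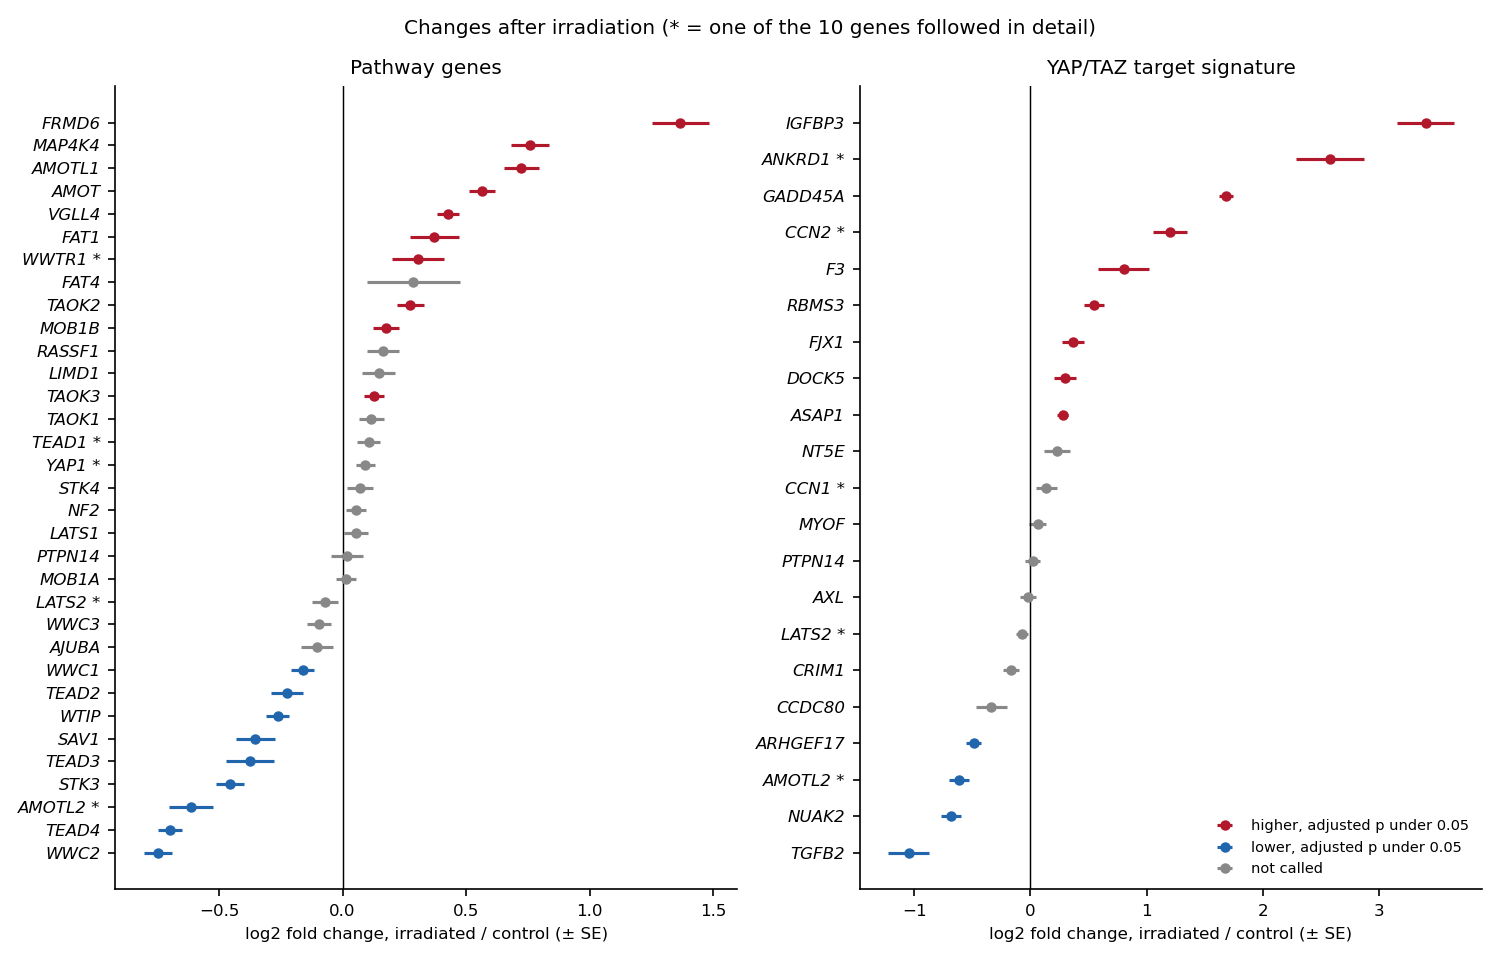
Log2 fold changes of irradiated against control samples ± SE (n = 5 each) for the 33 tested pathway genes (left) and the 21 tested genes of the YAP/TAZ target signature (right), on separate scales, coloured by call (edgeR adjusted p under 0.05), with the genes followed in detail marked by an asterisk. Pathway genes spread on both sides of 0 from WWC2 to FRMD6, and the signature runs from TGFB2 at -1.05 to IGFBP3 at 3.40, with CCN1 near 0 and CCN2 and ANKRD1 toward the upper end.

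Among the target genes, CCN2 and ANKRD1 rose and CCN1 was not called. CCN1 (chromosome 1, 85580761 to 85584589, plus strand), a secreted protein of the CCN family and one of the best known YAP targets, was at 708.7, 697.6, 600.9, 855.7 and 839.6 CPM in controls. In irradiated samples it was at 816.7, 648.5, 864.0, 897.9 and 835.8 CPM. The groups overlapped, with 3 pairs higher and 2 lower, and the largest rise was the 1.44-fold of pair 3. The log2 fold change was 0.14 (SE 0.09, edgeR adjusted p = 0.249), and -0.03 without replicates 1 and 3.

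CCN2 (chromosome 6, 131948176 to 131951372, minus strand), the connective tissue growth factor of older literature, was at 46.2, 107.6, 43.7, 90.4 and 101.7 CPM in controls. In irradiated samples it reached 135.2, 183.8, 149.3, 179.1 and 196.1 CPM. The lowest irradiated sample was above the highest control, and controls 1 and 3 were both under 50 CPM, the lowest of all samples. CCN2 rose 2.30-fold, from 77.9 ± 30.7 to 168.7 ± 25.4 CPM (log2 fold change 1.20, SE 0.15, edgeR adjusted p = 0.000491). The irradiated sample was 2.93- and 3.42-fold above its control in pairs 1 and 3 and 1.71- to 1.98-fold above it in the other pairs, and without replicates 1 and 3 the log2 fold change was 0.89 (edgeR adjusted p = 6.3e-05). The log2 ratio of CCN1 to CCN2 fell from 3.34 ± 0.52 to 2.27 ± 0.32, a difference of -1.07 that was lower in all 5 pairs (two-sided exact permutation test, p = 0.00794, adjusted p = 0.0159).

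ANKRD1 (chromosome 10, 90912096 to 90921087, minus strand) encodes a cardiac ankyrin repeat protein that acts in the nucleus and at the sarcomere of muscle and is widely read as a YAP target in other cells. It was the scarcest of the 10 genes, at 0.538, 0.250, 2.73, 0.455 and 0.437 CPM in controls, from 44, 35, 274, 49 and 52 counts. In irradiated samples it was at 4.59, 2.08, 6.48, 3.53 and 3.39 CPM, from 455, 139, 600, 324 and 300 counts. Control 3 stood far above the other controls and above irradiated replicate 2, and irradiated replicate 3 was the highest of its group. ANKRD1 rose in every pair, by 7.75- to 8.53-fold in pairs 1, 2, 4 and 5 and by 2.37-fold in pair 3. The fitted change was 5.97-fold (log2 fold change 2.58, SE 0.29, edgeR adjusted p = 0.000367), the largest of the 10 genes, and 3.01 on the log2 scale without replicate 3. ANKRD2, a related ankyrin repeat gene, fell from 16.7 ± 4.61 to 7.15 ± 1.19 CPM (log2 fold change -1.20, edgeR adjusted p = 8.91e-05), and ANKRD23 was not called (-0.12).

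The stretch of genome around the start site of a gene is one of the places where TEAD factors can bind. The promoter windows of RefSeq (GRCh38.p14), 250 bases before to 50 after the start, were searched for the TEAD core GGAATG on both strands. Sites farther away were not searched. At least 1 match was found in 14.03% of 35116 windows, at least 2 in 1.37% and at least 3 in 0.128%. CCN2 had 3 matches, whose first bases lay at positions -169, -104 and -95 from the start. ANKRD1 had 2, at -220 and -128, together with 1 match to the AP-1 motif TGANTCA (in 7.71% of windows) at -195. THBS1 had 1, at -46. The 250 bases before the start are shown for CCN2 and ANKRD1, which rose, and for the matricellular gene THBS1, which was not called. The core is in capitals, and the letters run 5′ to 3′ on the strand of the gene. They come from chr6:131951373-131951622 (minus strand) for CCN2, chr10:90921088-90921337 (minus strand) for ANKRD1 and chr15:39580829-39581078 (plus strand) for THBS1.
CCN2: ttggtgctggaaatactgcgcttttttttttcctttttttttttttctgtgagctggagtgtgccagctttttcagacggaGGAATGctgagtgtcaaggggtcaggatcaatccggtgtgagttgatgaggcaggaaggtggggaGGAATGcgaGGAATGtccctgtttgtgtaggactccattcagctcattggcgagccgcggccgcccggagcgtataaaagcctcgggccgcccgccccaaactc
ANKRD1: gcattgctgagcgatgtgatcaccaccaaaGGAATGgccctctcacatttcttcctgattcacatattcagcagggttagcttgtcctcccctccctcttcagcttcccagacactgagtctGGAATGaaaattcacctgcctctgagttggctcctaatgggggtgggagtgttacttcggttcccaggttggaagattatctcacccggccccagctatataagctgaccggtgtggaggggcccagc
THBS1: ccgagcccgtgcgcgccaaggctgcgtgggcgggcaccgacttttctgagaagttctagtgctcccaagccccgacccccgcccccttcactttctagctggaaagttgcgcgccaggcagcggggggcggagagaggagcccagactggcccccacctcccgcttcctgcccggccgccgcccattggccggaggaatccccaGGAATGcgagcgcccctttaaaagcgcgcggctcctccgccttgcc

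YAP1 and LATS2 had 1 TEAD core each, as did the second of the AMOTL2 windows, and no core was found in the first AMOTL2 window, in both WWTR1 windows or in that of TNC. The serum response element known as the CArG box was in none of these windows and in 1.29% of all windows. CCN1 and TEAD1 have no entry in the table. Among the genes searched, CCN2 and ANKRD1 had more than 1 core and rose, and WWTR1, with none, was also called higher. YAP1, LATS2 and THBS1 have 1 core each and were not called, TNC has none and was not called, and AMOTL2 fell. Other YAP and TAZ targets were not looked at one by one, and the part of TEAD in these changes was not tested. A match is a string of letters in a window, not a site shown to be bound.

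**Figure D3:**
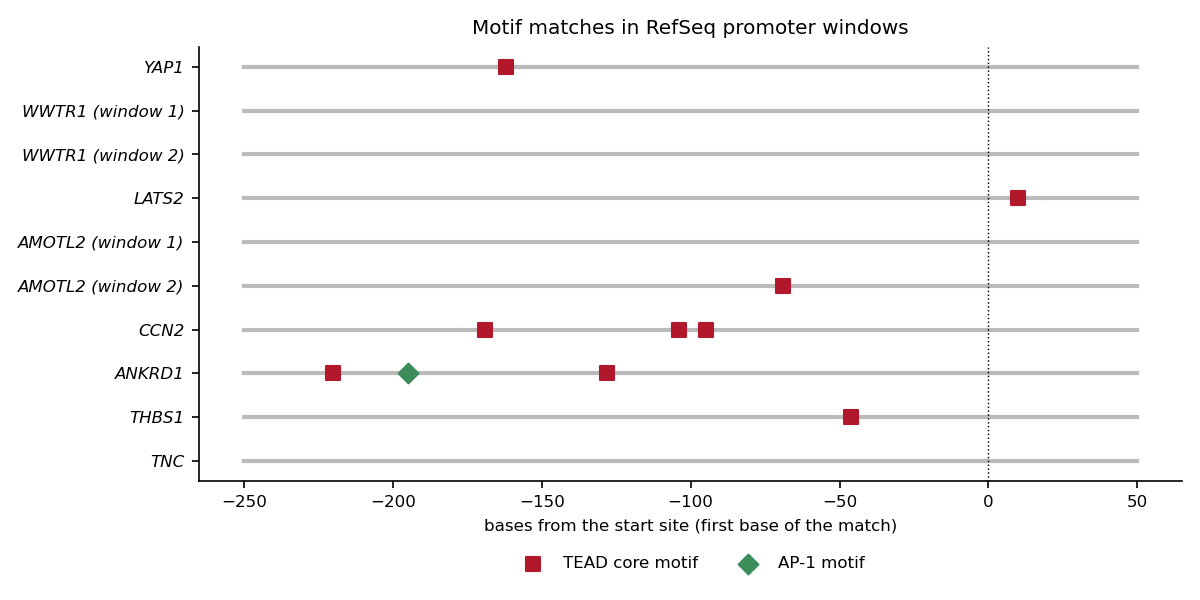
Positions of TEAD core (squares) and AP-1 (diamond) matches in RefSeq promoter windows of 8 of the 10 genes, in bases from the start site (dotted line), with a grey line for each window searched. CCN2 holds 3 TEAD cores and ANKRD1 2, and the other windows hold 1 or none.

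The literature signature of 22 YAP and TAZ targets includes AMOTL2, ANKRD1, CCN1, CCN2 and LATS2. Of its genes, 21 were tested (FOXF2 was under the limit), 9 were higher and 4 lower, against 23.9% and 22.7% of all genes tested, and the median log2 fold change was 0.14, against -0.01. Without replicate 1, 6 were higher and 4 lower, and without the replicate block 7 and 5. When libraries were scaled by size alone, 8 were higher and 6 lower. The largest rise belonged to IGFBP3, an insulin-like growth factor carrier, which went from 40.7 ± 16.0 to 415.8 ± 139.1 CPM (log2 fold change 3.40, edgeR adjusted p = 5.27e-05). GADD45A, a DNA damage gene also driven by p53, rose from 29.3 ± 4.38 to 93.2 ± 8.76 CPM (1.68, edgeR adjusted p = 8.62e-06). The largest falls were those of TGFB2 (-1.05), the kinase NUAK2 (-0.68), AMOTL2 and ARHGEF17 (-0.49), with edgeR adjusted p-values from 0.000578 to 0.00231. Among the 16 tested genes of the signature other than the 5 already described, 7 were higher and 3 lower. The signature therefore held strong rises and clear falls side by side.

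THBS1 and TNC, the matricellular genes outside the CCN family, were abundant and were not called. THBS1 (chromosome 15, 39581079 to 39599466, plus strand), a thrombospondin that activates latent TGF-β, was at 1590, 1247, 927.2, 2063 and 2004 CPM in controls and at 1863, 1377, 1837, 2203 and 2178 CPM in irradiated samples. Control 3 was the lowest of all samples, and THBS1 was 1.98-fold higher in pair 3 but 1.07- to 1.17-fold higher in the other pairs. The log2 fold change was 0.31 (SE 0.13) and the gene was not called (edgeR adjusted p = 0.0894), although it passed the threshold without replicate 3, at a log2 fold change of 0.15 (edgeR adjusted p = 0.0463), and with DESeq2 (adjusted p = 0.0355). Without replicates 1 and 3 the log2 fold change was 0.10 (edgeR adjusted p = 0.172), and without the replicate block 0.27 (edgeR adjusted p = 0.338). The mean log2 CPM of cell cycle genes was 4.33 in control 3 and 4.34 in control 1, where THBS1 was at 1590 CPM. The part of proliferation in the result was not tested.

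TNC (chromosome 9, 115019575 to 115118207, minus strand), the large matrix glycoprotein tenascin C, was at 1137, 868.6, 1242, 1306 and 902.5 CPM in controls. In irradiated samples it was at 1080, 952.4, 1494, 1030 and 913.1 CPM. The group means, 1091 ± 198 and 1094 ± 233 CPM, differed by far less than their spread (log2 fold change 0.00, SE 0.09, edgeR adjusted p = 0.999), with 3 pairs higher and 2 lower. The log2 ratio of TNC to THBS1 fell in each of the 5 pairs, by 0.31 on average, while the groups overlapped (two-sided exact permutation test, p = 0.365, adjusted p = 0.365). Exact sign flips within pairs gave an adjusted p of 0.075, the smallest value that they gave for any ratio.

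Relatives of the secreted genes were mostly scarce. Of the 6 CCN genes, CCN4, CCN5 and CCN6 were under the count limit, and of the 3 tested CCN3 rose with CCN2, from 16.6 ± 8.84 to 37.4 ± 7.39 CPM (log2 fold change 1.30, edgeR adjusted p = 0.000478). Of 14 thrombospondins, tenascins and other matricellular genes, 8 were under the limit (THBS2, COMP, TNXB, TNR, TNN, SPARC, POSTN and SMOC1). Of the 6 tested, SPP1, which encodes osteopontin, was higher (from 2691 ± 563 to 3636 ± 702 CPM, log2 fold change 0.44, edgeR adjusted p = 0.0118), and SMOC2 (-0.99) and THBS4 (-0.72) were lower. The call for SPP1 was lost without the replicate block. Over all genes tested, 23.9% were higher and 22.7% lower.

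Among 10 tested receptors of the matricellular proteins (ITGA8 was under the limit), 4 were higher and 1 lower. Over all genes tested, 23.9% were higher and 22.7% lower, so these counts alone do not set the receptors apart. Integrin β1, encoded by ITGB1, rose from 1269 ± 145 to 2072 ± 237 CPM (log2 fold change 0.71, edgeR adjusted p = 0.000233). The THBS1 and CCN2 receptor LRP1 rose by 0.43 on the log2 scale, ITGAV by 0.35 and ITGB3 by 0.23, while ITGB5 fell by 0.16. The calls for LRP1, ITGB3 and ITGB5 were lost without the replicate block, and that for ITGB5 also without replicate 1, 4 or 5 (-0.15 to -0.14).

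Markers of other cell types were at low levels, and some of them rose, as CCN2 did. Of 5 fibroblast or mural markers, COL3A1, PDGFRB and LUM had 4, 49 and 2 counts over all 10 samples and were not tested, whereas DCN (log2 fold change 2.36) and COL1A1 (0.78) rose, and the summed level of the list was 15.8 to 23.4 CPM in controls and 28.4 to 39.9 CPM in irradiated samples. Of 3 endothelial markers, CDH5 (2.48) and PECAM1 (0.72) rose and VWF was not called, with sums of 1.28 to 2.40 and 4.15 to 6.07 CPM. The leucocyte sums were 0.202 to 0.538 and 0.272 to 0.583 CPM, with PTPRC not called and CD68 and CD3E under the limit. Among 5 epithelial markers CDH1 was lower (-0.18), a call lost without replicate 1, 2, 3 or 5 (-0.18 to -0.14) and without replicates 1 and 3 together. Of the 3 tested proximal tubule markers, edgeR and limma-voom called 0 and DESeq2 1, and 1 had an unadjusted p under 0.05. The part of other cell types in the rise of CCN2 was not tested.

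CCN2, ANKRD1 and THBS1 are also known to answer to serum response factor and its cofactors of the MRTF family, which sense actin. Of 12 genes of that system, 7 were higher and 1 lower, with a median log2 fold change of 0.19, against 23.9% higher and 22.7% lower over all genes. The tropomyosin gene TPM1 rose from 981.2 ± 156 to 1597 ± 201 CPM (0.71), and FHL2 (0.69), MYL9 (0.65), ACTA2 (0.41), VCL (0.35), CNN2 (0.20) and SRF itself (0.19) were higher by smaller amounts, while MRTFA fell by 0.11. The edgeR adjusted p-values ran from 0.000324 (TPM1) to 0.0433 (MRTFA), and without the replicate block 4 genes were higher. MRTFA was not called without replicate 1, 2, 4 or 5 (-0.11 to -0.10), CNN2 (0.21) and SRF (0.19 to 0.21) without replicate 1, 4 or 5, and ACTA2 without replicate 4 or 5 (0.43). Without replicates 1 and 3 SRF was at 0.10 (edgeR adjusted p = 0.0988) and CNN2 at 0.12 (edgeR adjusted p = 0.056), and both also lost their calls when libraries were scaled by size alone (SRF 0.11, CNN2 0.12) or by the upper quartile, where 5 of the 12 genes were higher. Of 9 tested immediate early genes (EGR2 was under the limit), ATF3 (0.93), DUSP1 (0.72), IER2 (0.30) and IER3 (0.27) were higher and EGR1 lower (-0.23). The shares over all genes were again 23.9% and 22.7%, and the count of 4 higher became 1 without the replicate block. ATF3 was not called without replicate 1, 2, 4 or 5 (0.70 to 0.98), nor EGR1 without replicate 2, 3, 4 or 5 (-0.27 to -0.18).

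Controls 1 and 3 differed from the other 3 controls in CCN2, WWTR1 and AMOTL2 as well as in cell cycle genes. Of 10 cell cycle genes, 9 were lower in irradiated samples (median log2 fold change -1.95), against 22.7% of all genes tested. MKI67 fell from 161.6 ± 85.4 to 24.0 ± 5.32 CPM (-2.57, edgeR adjusted p = 0.00141), with CDK1 at -2.10, BUB1 at -2.06 and CCNA2 at -2.06. Summed levels were 245.8 to 707.3 CPM in controls and 135.1 to 187.5 CPM in irradiated samples. Controls 1 and 3, the lowest of the controls by this measure, had the lowest CCN2 (46.2 and 43.7 CPM) and WWTR1 (201.7 and 149.0 CPM) of the 5 controls. They also had the highest AMOTL2 (257.0 and 352.6 CPM), followed by control 5 (233.1 CPM). Irradiated samples, lower still by this measure, were at 135.2 to 196.1 CPM for CCN2 and 245.5 to 289.1 CPM for WWTR1. Their AMOTL2 was at 146.1 to 171.8 CPM. The part of proliferation in the levels of these genes was not tested.

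**Figure D4:**
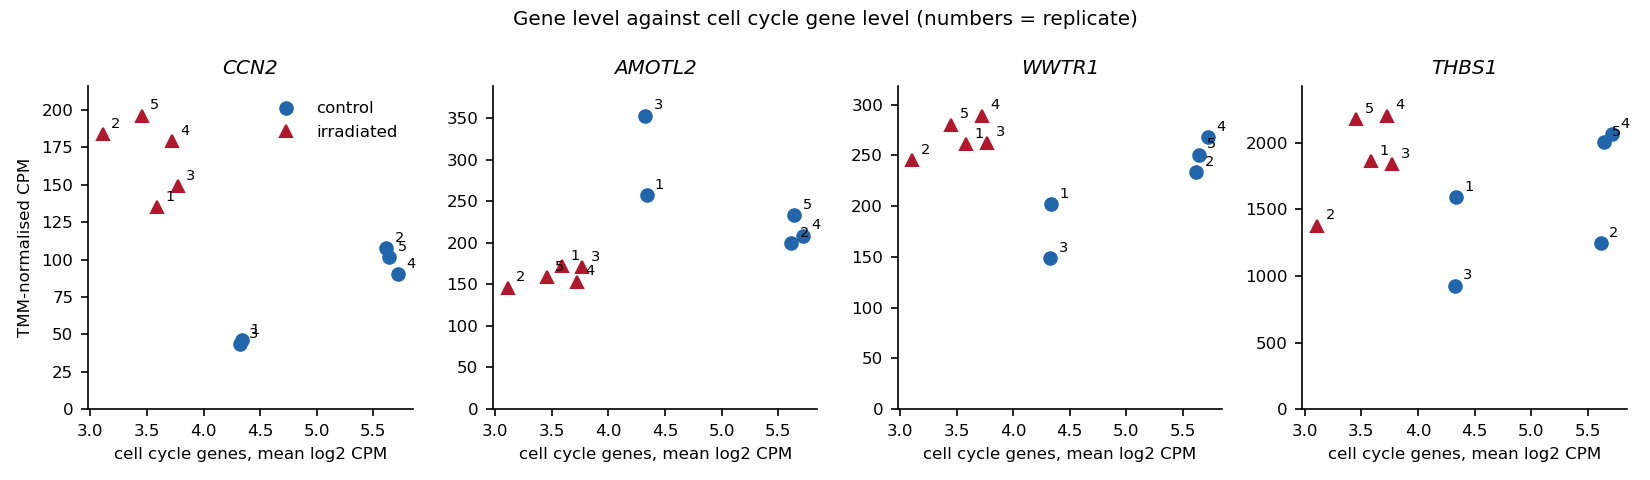
Expression of CCN2, AMOTL2, WWTR1 and THBS1 (TMM-normalised CPM, axes from 0) against the mean log2 CPM of 10 cell cycle genes in the 5 control (circles) and 5 irradiated (triangles) samples, numbered by replicate. Controls 1 and 3 lie at 4.34 and 4.33, between the irradiated samples (3.11 to 3.77) and the other controls (5.61 to 5.72), with the lowest CCN2 and WWTR1 and the highest AMOTL2 of the controls.

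For the 5 target and matricellular genes, the genes with the most similar profiles were found by the root mean square distance between mean-centred log2 CPM over the 10 samples, among 18959 tested genes with a symbol. For CCN2 they were PTGS1 (0.101), TRAC (0.124) and CNIH3 (0.156), where the median gene was at 0.773. For ANKRD1 they were UCA1 (0.372), KLRG2 (0.403) and GCNT3 (0.444), where the median was 1.60. CCN1 was nearest to OSGIN2 (0.0773), TSR1 (0.0778) and FLNA (0.0779), with a median of 0.316. THBS1 was nearest to PHEX (0.146), GDAP1 (0.148) and GNAT2 (0.149), with a median of 0.461, and TNC to HIGD1A (0.137), SLC39A1 (0.145) and GAPDH (0.153), with a median of 0.349. The 10 genes themselves were left out of this search.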

How the data were processed

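Polyadenylated RNA of 5 irradiated and 5 control samples was sequenced. The authors trimmed reads with Trim-Galore, aligned them to GRCh38 with STAR and deposited its whole-number counts per gene, without normalisation. Whether strand was used was checked on the counts: 0 counts were found on all 17 protein-coding genes covered completely by exons on the other strand, and on 10.7% of the 12742 free of such overlap, so reads on overlapping exons are treated as lost. Of 61587 rows, 61369 matched a symbol and GENCODE coordinates.

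Testing used edgeR 4.0.16 under R 4.3.3 (TMM, quasi-likelihood test, Benjamini-Hochberg adjustment) on the 19006 genes whose counts over the 10 samples reached 200, with replicate number as a block. Same-numbered samples deviated together from their group means (correlations 0.22 to 0.51, against -0.35 to 0.32 for different numbers), and no 2 replicates agreed within sampling noise (chi-square per gene at least 8.50). Replicates 4 and 5 were the closest pair in both groups. Their chi-square per gene was 15.2 in controls, against 57.2 to 213.6 for other pairs, and 8.50 in irradiated samples, against 40.5 to 88.6. If they were not separate cultures, p-values overstate the number of independent samples. Depth was 66269311 to 131555873 counts per sample, so the spread between replicates sets the precision of all but the scarcest genes. CPM per kb divides by the union of exons. Log2 CPM for distances used a prior count of 2. Log2 ratios between genes were compared by exact permutation. Sequences are RefSeq promoters of GRCh38.p14.

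The 10 genes, the lists (pathway roles, literature target signature, relatives, receptors, markers) and the tests were chosen with earlier results of these data known. From each list all called genes are named where 8 or fewer were called, otherwise the 4 largest rises and 4 largest falls, and the genes under the count limit. Alternatives were DESeq2 1.42.0, limma-voom (limma 3.58.1), upper-quartile scaling, library size only, a minimum of 1 count, filterByExpr, no replicate block and each replicate left out. Leaving out replicates 1 and 3 together was added after seeing the data. The edgeR and permutation steps were tested on simulated data. Plots were made in Python 3.11.15 (matplotlib 3.10.9).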

Additional observations from a re-analysis of the deposited data

Results flagged for a closer look

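In groups of 5 samples, 14 of 138 groups held a sample farther from the others than Dixon's criterion allows, where chance alone flags about 1 in 20 groups, or 6.9. Of the 10 genes followed in detail, ANKRD1 stood at 2.73 CPM in control replicate 3, against 0.250 to 0.538 CPM in the other controls, and TNC at 1494 CPM in irradiated replicate 3, against 913.1 to 1080 CPM.

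Control replicate 3 was also high for the immediate early genes ATF3 (3.81 CPM, others 0.854 to 1.25) and DUSP1 (65.3 CPM, others 23.8 to 27.9). Irradiated replicate 3 was high for ITGB5 (310.2 CPM, others 265.0 to 276.7), FHL2 (549.7 CPM, others 393.9 to 439.1) and MYL9 (11.4 CPM, others 7.43 to 8.28). Irradiated replicate 2, with the fewest counts of all samples, was low for ITGB1 (1657 CPM, others 2118 to 2247) and TPM1 (1247 CPM, others 1624 to 1729) and high for SMOC2 (3.30 CPM, others 1.76 to 2.09), ACTA2 (8.59 CPM, others 4.36 to 5.22) and DCN (4.45 CPM, others 0.454 to 1.61). Its log2 ratio of TEAD4 to TEAD1 was -3.23, against -3.63 to -3.54 in the other irradiated samples. Control replicate 2 was low for TGFB2 (23.7 CPM, others 32.9 to 35.0).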

How the results depend on the processing

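ANKRD1, CCN2 and AMOTL2 kept their direction and call under every alternative run, and YAP1 and TEAD1 kept their direction and stayed uncalled. Between 2 and 4 of the 10 genes were higher and 1 was lower under each. WWTR1 (log2 fold change 0.31) lost its call with upper-quartile scaling (0.27), library size only (0.23), no replicate block (0.28) and without replicates 1 and 3 (0.10), and ranged from 0.18 to 0.37 with single replicates left out. THBS1 passed the threshold with DESeq2 (0.31) and a minimum of 1 count (0.28), and ranged from 0.15 to 0.37 with single replicates left out. TNC, at 0.0002, turned sign with DESeq2 (-0.0023), limma-voom (-0.0001), upper-quartile scaling (-0.0327), library size only (-0.076), a minimum of 1 count (-0.0351), filterByExpr (-0.0091) and without replicates 1 and 3 (-0.0807), and ranged from -0.0612 to 0.0869 with single replicates left out. Without replicates 1 and 3, LATS2 was at 0.001 and CCN1 at -0.0307. None of LATS2, CCN1 and TNC was called under any of these. The number of higher pathway genes ranged from 6 to 12 with single replicates left out. In the replicate block, exact sign-flip permutation within pairs left the ratios AMOTL2 to AMOTL1 (-1.34), TEAD4 to TEAD1 (-0.81) and CCN1 to CCN2 (-1.07) at an adjusted p of 0.075, the smallest that the 5 pairs gave over the 6 ratios. With single replicates left out they ranged from -1.45 to -1.16, -0.86 to -0.78 and -1.12 to -0.9997 (adjusted p = 0.0571, exact permutation). Without replicates 1 and 3 they were -1.10, -0.76 and -0.92 (adjusted p = 0.2, exact permutation). Before adjustment each was at the smallest p that the smaller design allows. The adjusted values also depend on the other ratios among the 6. For 53 other named genes, 618 comparisons under the alternatives kept direction and call, 71 kept direction and lost the call (14 of them without the replicate block) and none turned. Without the block 7006 genes were called in the whole table, against 8857. For the calls lost or gained here, the cause was not tested. Among the 10 genes depth limits only ANKRD1, with as few as 35 counts in a sample. It also limits the genes under 200 counts and scarce called genes outside the 10. Examples are THBS4, DCN and CDH5, with 553, 881 and 1822 counts over all samples.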
